A study of Homo sapiens with 90 samples.

Results

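The HOX cluster genes were followed in A673 cells, a line grown from a Ewing sarcoma. A probe set was taken as a HOX gene when the platform annotation gave it exactly 1 gene symbol and that symbol was HOXA, HOXB, HOXC or HOXD with a number, and where a gene had several such probe sets the one with the highest mean over all columns stood for it. This rule gave 29 genes of the 19774 genes represented, from 47 probe sets. The 29 genes covered all 10 HOXB genes, all 9 HOXC genes and all 9 HOXD genes of RefSeq, but only 1 of 11 HOXA genes, HOXA2. The other HOXA genes are not analysed here.

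HOX genes encode homeodomain transcription factors that give body regions their identity along the head-to-tail axis. They lie in clusters in which the order of the genes follows the order of the regions they pattern, and genes at the same place in different clusters are paralogues that share a number. Low numbers are called anterior and high numbers posterior. Polycomb proteins keep silent HOX genes off and Trithorax proteins keep active ones on. Ewing sarcoma is driven by fusions such as EWSR1-FLI1, and posterior HOXD genes are known to be strongly expressed in it.

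The study exposed A673 cells from a commercial collection, plated at 26000 cells per well, for 24 h to fenbuconazole (a triazole fungicide), imazalil (an azole fungicide) or 2,4-D (2,4-dichlorophenoxyacetic acid, a herbicide). Each chemical was given at 9 concentrations from 0.001 to 10 µM spaced about evenly on a log scale, with 3 arrays at each. Every well, controls included, held 0.2% DMSO, the vehicle. The 27 treated columns of a chemical and 3 DMSO columns were normalized together and are called a set here, and the sets were normalized apart, so no level was compared across them. All samples came from 1 cell line, so the values describe A673 and not Ewing sarcoma in general.

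Total RNA was measured on Affymetrix HT HG-U133+ PM arrays, and levels are log2 values, in which 1 unit is a doubling. All 10 measured Ewing sarcoma markers, among them NKX2-2, STEAP1 and CD99, were above background in every set, while 1 of 10 hepatocyte markers, 1 of 7 blood cell markers and 1 of 6 endothelial markers were. The breast epithelium list had 4 of 10 above (KRT8, KRT18, ESR1 and GATA3), and EPCAM, KRT19, TFF1, CDH1, ELF3 and AGR2 were not above. The titles call all 9 DMSO columns common controls. With the same number, those deposited with imazalil and with 2,4-D had deviations from the mean of their set that correlated at 0.867 to 0.878, as the same arrays normalized with different partners would, while those deposited with fenbuconazole correlated with them at 0.105 to 0.198. Replicates were independent experiments on separate cell batches by the study's account, but the labels do not tie a number to a batch, plate or array run.

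In the HOXD cluster, neighbours stood on different sides of the background in the DMSO columns. HOXD13, HOXD12 and HOXD11 lie side by side on chromosome 2 on the forward strand, and HOXD12 was not above background in any set while both its neighbours were far above it. Their RefSeq promoters (GRCh38.p14, 250 bases before the annotated start to 50 after it, 5′ to 3′) are shown for this contrast, with every CpG in capitals, since CpG-rich promoters are the ones that Polycomb and Trithorax complexes are known to bind. The HOXD13 window lies inside the annotated span of the gene, which begins at chr2:176087487, and so is not at the outermost start. The same holds for the HOXD3 window counted below.

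HOXD13, chr2:176092471-176092770, + strand: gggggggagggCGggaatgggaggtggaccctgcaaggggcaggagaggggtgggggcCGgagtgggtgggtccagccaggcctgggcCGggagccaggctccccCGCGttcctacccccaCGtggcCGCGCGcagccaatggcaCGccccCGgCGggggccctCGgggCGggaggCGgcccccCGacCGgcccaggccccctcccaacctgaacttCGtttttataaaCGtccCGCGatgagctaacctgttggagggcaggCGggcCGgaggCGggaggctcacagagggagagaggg

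HOXD12, chr2:176099545-176099844, + strand: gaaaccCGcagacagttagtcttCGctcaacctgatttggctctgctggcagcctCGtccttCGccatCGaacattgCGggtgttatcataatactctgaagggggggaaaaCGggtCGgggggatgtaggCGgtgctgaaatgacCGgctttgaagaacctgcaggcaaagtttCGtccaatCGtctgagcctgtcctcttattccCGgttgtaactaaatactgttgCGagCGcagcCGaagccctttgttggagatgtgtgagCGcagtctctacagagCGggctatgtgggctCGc

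HOXD11, chr2:176107030-176107329, + strand: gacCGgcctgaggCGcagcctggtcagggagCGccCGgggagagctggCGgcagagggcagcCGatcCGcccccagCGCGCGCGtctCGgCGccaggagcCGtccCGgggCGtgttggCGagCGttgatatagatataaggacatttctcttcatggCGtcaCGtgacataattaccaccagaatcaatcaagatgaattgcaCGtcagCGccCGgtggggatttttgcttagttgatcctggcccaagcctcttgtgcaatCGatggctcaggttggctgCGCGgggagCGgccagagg

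The HOXD12 window held 19 CpG, fewer than the 24 of HOXD13 and the 27 of HOXD11. Over all 35116 promoters in the table the median was 14 CpG, so HOXD12 lay above that median too. The 12 HOX genes with a promoter in the table ranged from 4 CpG (HOXD4, above background in every set) to 36 (HOXD1, above background in none). CpG content therefore did not separate genes above and below background in this small group, with medians of 23.5 over 6 windows and 15 over 4 windows. HOXC4 and HOXC5 share 1 annotated start and so 1 window, with 15 CpG, which was counted once.

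A search of both strands for the E-box CACGTG found it in 5 of the 11 distinct windows (HOXD1, HOXD3, HOXD10, HOXD11 and HOXD13), against 7.23% of all 34943 distinct windows in the table. The TATA box TATAAA was found in 1 of the 11, HOXD13, against 11.6% of all. The repeat GGAAGGAA, of the kind bound by EWSR1-FLI1, was found in 1, HOXA2, against 3.68% of all. The HOX and PBX motif TGATTGAC was in none of the 11 and in 0.578% of all. These matches are descriptions of letters in a window, and none of the 4 motifs contains another.

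The first question was which HOX genes A673 cells express without a chemical. Of the 29 genes, 21 (72.4%) were above background on all 3 DMSO columns of every set, against 52.8% of all 19774 genes. A gene was above background where its level passed the 95th percentile of 83 olfactory receptor genes, which A673 cells are not thought to express, on the same column. That ceiling lay at 3.03 to 3.13 in the fenbuconazole set, 3.40 to 3.51 in the imazalil set and 3.55 to 3.67 in the 2,4-D set. Per set the count was 21 genes in the fenbuconazole set (53.6% of all genes were above there), 24 in the imazalil set (57.8% of all) and 24 in the 2,4-D set (56.7% of all).

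By cluster, 7 of 10 HOXB genes, 8 of 9 HOXC genes and 6 of 9 HOXD genes were above background in every set, and HOXA2 was not. By position, 2 of 6 anterior genes (numbers 1 to 3), 10 of 11 central genes (4 to 8) and 9 of 12 posterior genes (9 to 13) were above. The genes of number 1 were below background in both clusters where they were measured, and so was HOXD12, while HOXC12 was above on 2 of 3 DMSO columns in the imazalil and 2,4-D sets. Values of each DMSO column follow in the order of replicate numbers 1, 2 and 3. A level places a gene against the ceiling and says nothing of its amount of RNA relative to another gene, since probes differ in how well they bind.

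In the HOXD cluster (chr2:176087487-176190907) the genes from HOXD8 to HOXD11, with HOXD13, were all above the ceiling. HOXD10, which patterns the hindlimb and lumbar motor neurons, stood at 8.96, 9.36 and 9.09 in the fenbuconazole set, 9.69, 9.98 and 9.94 in the imazalil set, and 9.81, 10.09 and 9.99 in the 2,4-D set. HOXD8, a gene of the trunk, stood at 8.64, 8.62 and 8.74 in the fenbuconazole set, 9.45, 9.59 and 9.66 in the imazalil set, and 9.52, 9.63 and 9.71 in the 2,4-D set. HOXD13, whose mutations cause fused and extra digits, stood at 8.66, 8.49 and 8.33 in the fenbuconazole set, 9.30, 9.21 and 9.22 in the imazalil set, and 9.35, 9.27 and 9.27 in the 2,4-D set. All 3 genes exceeded the ceiling by at least 5.41 log2 units in the mean of every set. HOXD9, a limb and trunk gene, stood at 7.57, 7.78 and 7.26 in the fenbuconazole set, 8.40, 8.42 and 8.31 in the imazalil set, and 8.35, 8.49 and 8.45 in the 2,4-D set. HOXD11, needed with HOXA11 to form the forearm bones, stood at 6.52, 6.74 and 6.80 in the fenbuconazole set, 7.87, 7.88 and 8.04 in the imazalil set, and 7.88, 8.07 and 8.13 in the 2,4-D set. HOXD4, of the neck region, stood at 5.63, 6.20 and 5.97 in the fenbuconazole set, 6.83, 7.19 and 6.66 in the imazalil set, and 6.80, 7.07 and 6.62 in the 2,4-D set. These 3 genes were also above on all columns, and HOXD9 and HOXD4 spread by 0.26 and 0.29 (SD, n = 3) over the fenbuconazole DMSO columns.

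HOXD12, a limb gene that lies between HOXD13 and HOXD11, stood at 2.44, 2.39 and 2.42 in the fenbuconazole set, 2.67, 2.52 and 2.58 in the imazalil set, and 2.84, 2.62 and 2.60 in the 2,4-D set. It lay 0.67 to 0.92 below the ceiling in the set means, and on none of the 30 columns of any set was it above. HOXD1, the most anterior gene of the cluster, stood at 2.79, 2.39 and 2.89 in the fenbuconazole set, 3.01, 2.92 and 2.70 in the imazalil set, and 3.04, 3.05 and 2.71 in the 2,4-D set, below the ceiling on all 9 columns. HOXD3, which patterns the first neck vertebrae, stood at 3.32, 3.04 and 2.88 in the fenbuconazole set, 4.51, 4.70 and 4.15 in the imazalil set, and 4.45, 4.66 and 4.22 in the 2,4-D set. HOXD3 was above on all 3 DMSO columns in the imazalil and 2,4-D sets and on 1 of 3 in the fenbuconazole set. Over all 30 columns of the fenbuconazole set, treated ones included, it was above on 25. The other 2 probe sets of HOXD3 were above background on all DMSO columns in no set.

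In the HOXC cluster (chr12:53938831-54056030) 8 of 9 genes were above background in every set. HOXC6, a thoracic gene that is also active in the mammary gland, stood at 8.24, 8.42 and 8.27 in the fenbuconazole set, 9.03, 9.36 and 9.09 in the imazalil set, and 9.09, 9.44 and 9.16 in the 2,4-D set. HOXC4, of the neck region, stood at 5.88, 6.25 and 6.11 in the fenbuconazole set, 6.31, 6.41 and 6.40 in the imazalil set, and 6.65, 6.67 and 6.72 in the 2,4-D set. HOXC9, which gives motor neurons a thoracic identity, stood at 5.61, 5.49 and 5.31 in the fenbuconazole set, 6.62, 6.52 and 6.53 in the imazalil set, and 6.54, 6.63 and 6.51 in the 2,4-D set. All 3 genes were above the ceiling on every column, HOXC6 by 5.23 to 5.72 in the set means. HOXC10, a lumbar gene, stood at 5.20, 5.70 and 5.43 in the fenbuconazole set, 5.73, 6.21 and 6.12 in the imazalil set, and 5.79, 6.30 and 6.28 in the 2,4-D set. HOXC11, a hindlimb gene, stood at 4.46, 4.84 and 4.30 in the fenbuconazole set, 5.73, 5.54 and 5.91 in the imazalil set, and 5.57, 5.48 and 5.67 in the 2,4-D set. HOXC13, which drives hair and nail keratin genes, stood at 5.66, 5.60 and 5.69 in the fenbuconazole set, 6.73, 6.29 and 6.94 in the imazalil set, and 6.81, 6.35 and 7.01 in the 2,4-D set. Replicate 2 was the lowest DMSO column for HOXC13 in every set.

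HOXC8, of the lower thorax, stood at 3.45, 4.59 and 3.72 in the fenbuconazole set, 4.82, 4.81 and 4.63 in the imazalil set, and 4.98, 4.71 and 4.69 in the 2,4-D set. HOXC8 had the largest SD of the 21 genes above background, at 0.59 (n = 3) over the fenbuconazole DMSO columns. HOXC5 stood at 3.35, 3.53 and 3.32 in the fenbuconazole set, 3.95, 4.11 and 4.23 in the imazalil set, and 4.08, 4.25 and 4.43 in the 2,4-D set, and its call was the weakest of the 21, at 0.32 over the ceiling in the mean of the fenbuconazole set. Over all 30 columns of that set, treated ones included, HOXC5 was above on 23. HOXC12, a posterior gene between HOXC13 and HOXC11, stood at 2.85, 2.80 and 2.79 in the fenbuconazole set, 3.79, 3.50 and 3.27 in the imazalil set, and 3.93, 3.86 and 3.43 in the 2,4-D set. It was above on no DMSO column of the fenbuconazole set, and on 4 of all 30 columns there. The annotation gives HOXC4, HOXC5 and HOXC6 the same start, at chr12:54016888, so probe sets named for one may in part read transcripts of another.

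In the HOXB cluster (chr17:48528526-48728750) the 7 genes above background ran from HOXB2 to HOXB8 without HOXB5, with HOXB13 added. HOXB2, which patterns the hindbrain, stood at 8.26, 8.17 and 8.21 in the fenbuconazole set, 9.26, 9.27 and 9.30 in the imazalil set, and 9.32, 9.36 and 9.36 in the 2,4-D set. HOXB7, a trunk gene, stood at 7.61, 7.42 and 7.42 in the fenbuconazole set, 8.28, 8.33 and 8.24 in the imazalil set, and 8.48, 8.47 and 8.42 in the 2,4-D set. HOXB3, also of the hindbrain, stood at 6.82, 6.64 and 6.82 in the fenbuconazole set, 7.44, 7.51 and 7.48 in the imazalil set, and 7.57, 7.61 and 7.60 in the 2,4-D set. All 3 genes were above the ceiling on every column, HOXB2 by 5.13 to 5.83 in the set means. HOXB4, known for expanding blood stem cells, stood at 4.67, 4.50 and 4.32 in the fenbuconazole set, 5.81, 5.69 and 5.58 in the imazalil set, and 5.82, 5.90 and 5.61 in the 2,4-D set. HOXB6, of the trunk, stood at 4.68, 4.57 and 4.19 in the fenbuconazole set, 6.18, 6.06 and 6.05 in the imazalil set, and 6.21, 6.12 and 6.07 in the 2,4-D set. HOXB8, known for holding myeloid progenitors immature, stood at 4.82, 4.65 and 4.59 in the fenbuconazole set, 4.98, 4.92 and 5.02 in the imazalil set, and 5.07, 4.96 and 5.05 in the 2,4-D set. These 3 genes passed the ceiling by 1.39 to 2.66 in the set means. HOXB13, which patterns the prostate and the tail end of the spine, stood at 4.78, 5.14 and 4.48 in the fenbuconazole set, 5.84, 6.04 and 6.01 in the imazalil set, and 6.14, 6.32 and 6.39 in the 2,4-D set, above on all 9 columns although it lies apart from the rest of the cluster.

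HOXB5, a gene of the shoulder level, stood at 2.70, 3.02 and 2.72 in the fenbuconazole set, 4.21, 4.67 and 4.02 in the imazalil set, and 4.37, 4.88 and 4.40 in the 2,4-D set. HOXB9, of the thorax, stood at 3.03, 2.99 and 3.01 in the fenbuconazole set, 4.02, 4.12 and 3.74 in the imazalil set, and 4.72, 4.77 and 4.37 in the 2,4-D set. Both were above on all DMSO columns in the imazalil and 2,4-D sets and on none in the fenbuconazole set. Over all 30 columns of the fenbuconazole set, treated ones included, HOXB5 was above on 5 and HOXB9 on 19. HOXB1, which specifies the origin of the facial nerve, stood at 2.28, 2.29 and 2.21 in the fenbuconazole set, 2.81, 2.90 and 2.86 in the imazalil set, and 2.84, 3.06 and 2.93 in the 2,4-D set, and HOXA2, which patterns the hindbrain and ear region, stood at 2.16, 2.10 and 2.15 in the fenbuconazole set, 2.82, 2.67 and 2.91 in the imazalil set, and 2.93, 2.82 and 2.84 in the 2,4-D set. Both were below the ceiling on all 30 columns of each set.

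Of the 12 genes with several probe sets, HOXB7, HOXB13, HOXD10 and HOXD13 had every probe set above background in every set. HOXB3 had 2 of 3 above, and HOXB6 and HOXD9 had 1 of 2. HOXB8 had 1 of 3, and its other 2 were above in no set. The count of 21 kept within 18 to 23 under other ceilings. HOXC5 was lost with the 99th percentile, and also where all 30 columns of each set had to pass. HOXB8, HOXC5 and HOXC8 were lost with a ceiling from blood, endothelial and hepatocyte markers.

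**Figure D1:**
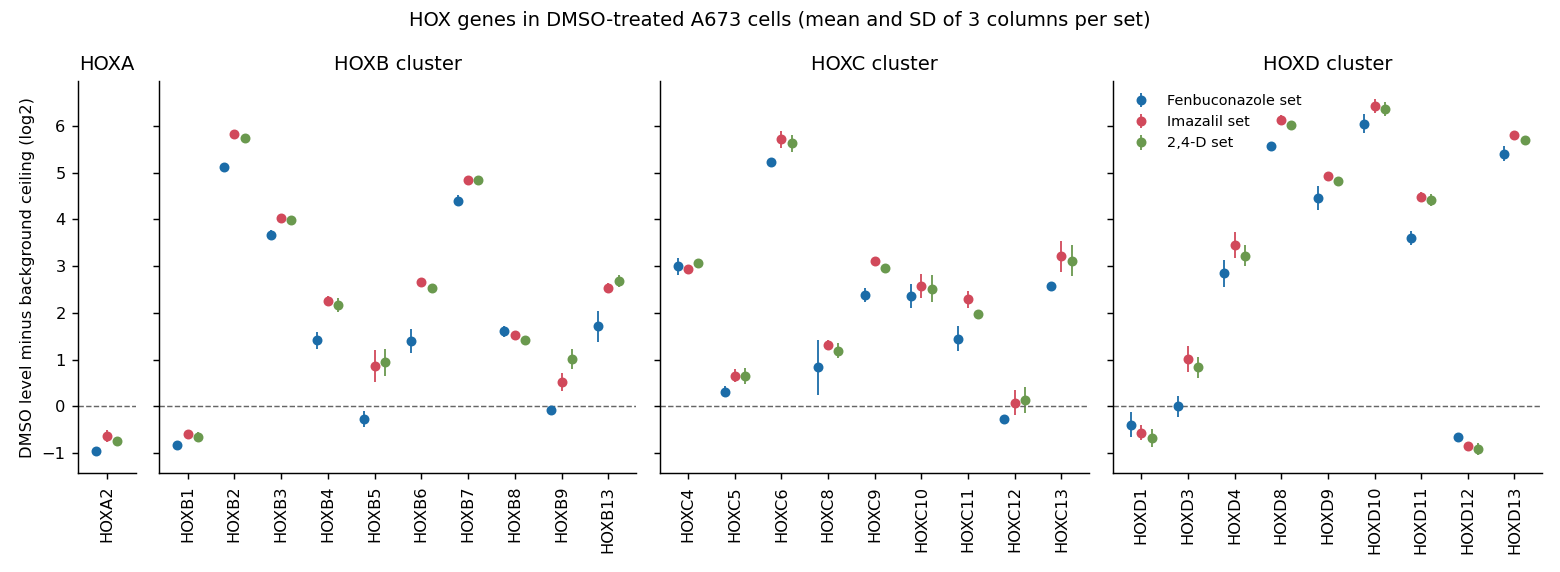
Mean level of each HOX gene over the 3 DMSO columns of a set, minus the background ceiling of that set (log2 units, vertical axis), with genes in the order of their numbers within each cluster (horizontal axis). Points are means, bars are SDs over 3 columns, colours are the 3 sets and the dashed line is the ceiling. HOXD8 to HOXD11 and HOXD13 sit 3.60 to 6.43 above the line, while HOXD12 sits 0.67 to 0.92 below it.

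The regulators of HOX genes and the RNAs of the clusters were read from lists. Of 28 Polycomb genes 27 were above background in every set, among them EZH2, the H3K27 methyltransferase, at 8.71 ± 0.11 (SD, n = 3) in the fenbuconazole set and 9.53 ± 0.15 (SD, n = 3) in the imazalil set. All 14 measured Trithorax and H3K27 demethylase genes were above, among them KMT2A, the H3K4 methyltransferase. Of 8 TALE cofactors, which bind DNA with HOX proteins, PBX2, PBX4, MEIS1, MEIS2 and PKNOX1 were above in every set and PBX3 in none. MEIS1 stood at 7.72 ± 0.22 (SD, n = 3) in the fenbuconazole set and at 8.24 ± 0.06 (SD, n = 3) in the imazalil set.

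Of 11 noncoding RNAs of the clusters, HOTAIR (HOXC), HOXB-AS1, HOXD-AS2 and HAGLROS (HOXD) were above background in every set and 6 in none, HOTTIP (HOXA) among them. HOXD-AS2 stood at 6.74 ± 0.10 (SD, n = 3) in the fenbuconazole set. Of 13 neighbours of the clusters that are not homeobox genes 9 were above, such as MTX2 beside HOXD. Of 7 ParaHox and flanking homeobox genes only CDX1 and PDX1 were above in every set, and of 16 retinoic acid genes 7 were, among them the receptor RARA.

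The next question was whether the chemicals moved HOX genes. No HOX gene passed the test at 10 µM for fenbuconazole, imazalil or 2,4-D (limma, adjusted p under 0.05), and 0.0% of all 54613 probe sets did so for each chemical. At an unadjusted p under 0.05 there were 1, 1 and 0 of the 29 genes and 3823, 2593 and 2105 of all probe sets. In cultures, fewer cells of a kind and less RNA per cell cannot be told apart. Over the 21 genes above background the median change at 10 µM was 0.01 for fenbuconazole, -0.01 for imazalil and -0.03 for 2,4-D, and the values lay between -0.26 and 0.22. Over all genes above background the medians were -0.01, 0.01 and -0.01.

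HOXD8 had the smallest p under fenbuconazole, and was not called. At 10 µM it read 8.47, 8.33 and 8.41, and in DMSO 8.64, 8.62 and 8.74. The treated values lay below all DMSO values, and the change was -0.26 ± 0.11 (SE, n = 3) with an adjusted p of 0.627 (limma). HOXD10 and HOXD3 came next, at -0.19 ± 0.10 and 0.29 ± 0.15 (SE, n = 3), with adjusted p of 0.73 and 0.738 (limma). In the fenbuconazole set 7 of 29 genes had treated and DMSO values that did not overlap (HOXB1, HOXC9, HOXC12, HOXD3, HOXD8, HOXD10 and HOXD12), against 11.2% of all probe sets. HOXB1, HOXC12 and HOXD12 were at background in that set, and HOXD3 was above it on only 1 of 3 DMSO columns. At 10 µM fenbuconazole 5 of 7 HOXB, 6 of 8 HOXC and 1 of 6 HOXD genes above background were higher than in DMSO, with medians of 0.04, 0.07 and -0.10, against 47.9% of all genes above background, and none passed. Under imazalil 3 of 7, 3 of 8 and 3 of 6 were higher (52.4% of all), and under 2,4-D 2 of 7, 3 of 8 and 2 of 6 (42.5% of all).

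HOXB3 had the smallest p under imazalil. It read 7.61, 7.72 and 7.73 at 10 µM against 7.44, 7.51 and 7.48 in DMSO, all treated values being the higher, and the change was 0.21 ± 0.07 (SE, n = 3; adjusted p = 0.896, limma). HOXD3 and HOXA2 followed at 0.25 ± 0.15 and -0.16 ± 0.11 (SE, n = 3), neither called, and HOXA2 was below background on every column. HOXB3 was the 1 HOX gene of 29 with no overlap there, against 7.97% of all probe sets.

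HOXC4 had the smallest p under 2,4-D. It read 6.33, 6.64 and 6.42 at 10 µM against 6.65, 6.67 and 6.72 in DMSO, all treated values being the lower, and the change was -0.22 ± 0.11 (SE, n = 3; limma, not called). HOXC6 and HOXA2 followed at 0.15 ± 0.08 and -0.14 ± 0.08 (SE, n = 3), neither called. HOXA2, HOXB6 and HOXC4 did not overlap with DMSO, 3 of 29 genes, against 7.01% of all probe sets. Of these, HOXA2 was below background on every column of the set.

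For scale, the 95% intervals of the 63 changes at 10 µM (21 genes and 3 chemicals) had a median half-width of 0.217, and the outermost bounds were -0.65 and 0.74. The residual SD of the 21 genes had a median of 0.125 in the fenbuconazole set, 0.109 in the imazalil set and 0.0976 in the 2,4-D set, against 0.130, 0.0986 and 0.0911 for all genes above background. This residual SD came from the fit of treated arrays with concentration and replicate number removed, and not from the fit behind the intervals. With both removed, the spread of HOX genes was close to that of other genes above background. The median size of the differences between replicate numbers was larger for HOX genes in some comparisons and smaller in others.

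**Figure D2:**
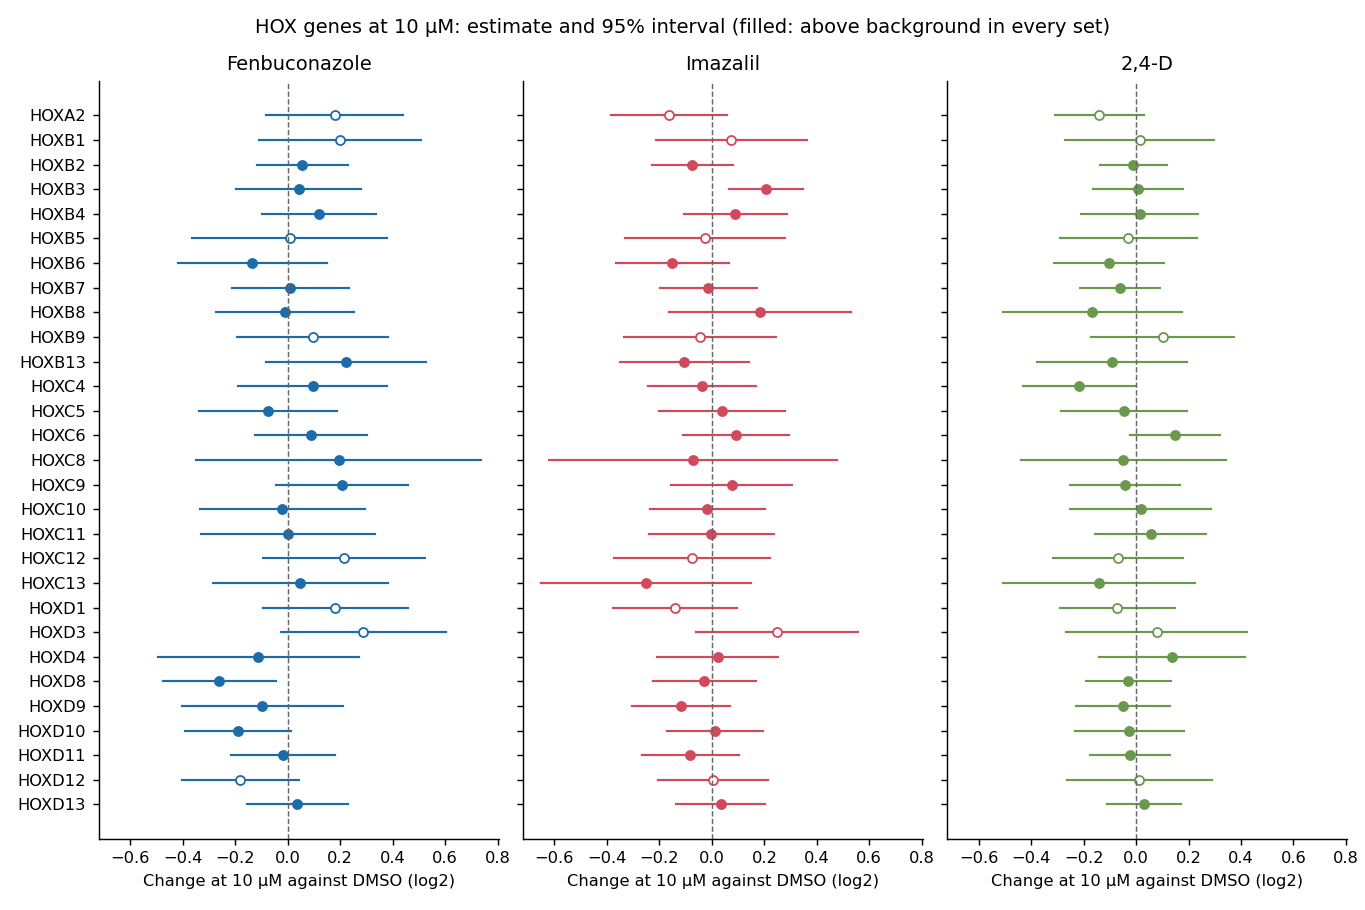
Change of each of the 29 HOX genes at 10 µM against DMSO (log2, horizontal axis), with 1 panel per chemical. Points are limma estimates from 3 treated arrays and 3 DMSO columns, lines are 95% intervals, and filled points are the 21 genes above background in every set. Most intervals cross 0, and HOXD8 under fenbuconazole and HOXB3 under imazalil are the filled points whose intervals do not, neither of them called.

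The other concentrations gave no call either. Over the 27 contrasts of a concentration with DMSO no HOX gene was called by limma, and 33 of 783 tests (4.21%) had an unadjusted p under 0.05, against 5.14% over all probe sets, of which 1 was called in 1 contrast. The moderated F over all 9 concentrations called 0 HOX genes in each set, with 0, 1 and 0 at an unadjusted p under 0.05 for fenbuconazole, imazalil and 2,4-D (4.73%, 3.38% and 3.77% of all probe sets), and called 0.0% of all. The trend with concentration called 0 HOX genes (0.0%, 0.00183% and 0.0% of all), with 2, 2 and 0 at an unadjusted p under 0.05 (4.30%, 4.92% and 3.67% of all). Every alternative fit that was run, 102 in all over 12 treatment tests with the comparisons between chemicals, called 0 of the 29 genes.

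Over the 567 changes of the 21 genes the range was -0.43 to 0.71, with a median size of 0.07. HOXC8 gave the highest value, at 0.03 µM fenbuconazole, where it read 4.92, 4.24 and 4.73 against 3.45, 4.59 and 3.72 in DMSO. These groups overlapped, and the change was 0.71 ± 0.26 (SE, n = 3; adjusted p = 0.426, limma). HOXC9 had the smallest adjusted p of the 21, 0.352 (limma), at the same concentration, where 5.85, 5.64 and 6.07 compared with 5.61, 5.49 and 5.31 in DMSO. HOXB6 gave the lowest value, at 0.003 µM imazalil, with 5.75, 5.68 and 5.59 against 6.18, 6.06 and 6.05 in DMSO, a change of -0.43 ± 0.10 (SE, n = 3; adjusted p = 0.920, limma).

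**Figure D3:**
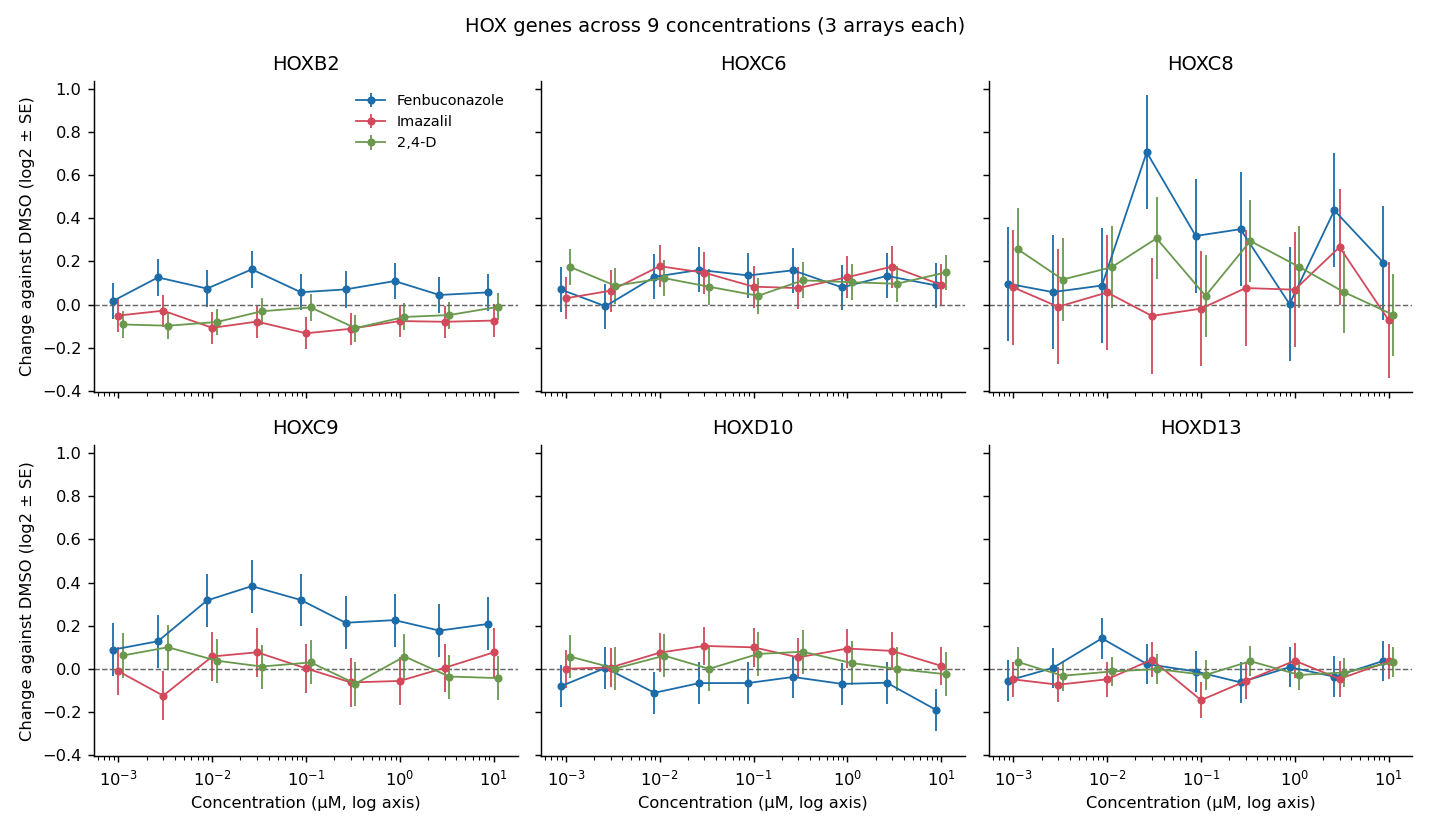
Change against DMSO (log2 ± SE, vertical axis) of 6 HOX genes at 9 concentrations (µM, log axis, points of the 3 chemicals shifted sideways for legibility), with 3 arrays at each concentration. HOXD10 stays between -0.19 and 0.11 and HOXD13 between -0.15 and 0.14, while HOXC8 has the widest error bars and reaches 0.71 at 0.03 µM fenbuconazole.

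Chemicals were compared at the matched 10 µM as differences of their changes against the DMSO of their own set, in 3 pairs, and limma called 0 of 29 HOX genes in each (0.00183%, 0.0% and 0.0% of all probe sets were called). The median difference over the 21 genes was 0.02 for fenbuconazole minus imazalil, 0.01 for fenbuconazole minus 2,4-D and -0.01 for imazalil minus 2,4-D. The 95% intervals reached from -0.65 to 1.01, -0.69 to 0.98 and -0.77 to 0.80, each bound being that of the gene with the most extreme one. The half-width of the interval had a median of 0.321 over the 21 genes in each pair, from 0.180 for HOXB2 to 0.741 for HOXC8. Fenbuconazole and imazalil are azoles and 2,4-D is a chlorophenoxy acid. HOXA2, at background, had an unadjusted p of 0.0268 for the first pair and 0.0380 for the second, and no other HOX gene was under 0.05. The imazalil and 2,4-D changes appear to rest on the same DMSO arrays, which this fit counted as separate. Shared controls largely cancel in the difference, so the intervals of that pair are too wide and its p-values too large. At an unadjusted p under 0.05 (limma) it had 0.859% of all probe sets. Fenbuconazole minus imazalil had 4.56%, and fenbuconazole minus 2,4-D had 5.06%.

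The last question was whether HOX genes differed between replicate numbers. The sets share no treated array and were tested apart. The labels do not say whether a number stands for the same cell batch or array run in each set. The sets may therefore not be independent repeats. HOXC13 was lowest on replicate 2 in every set, and the other genes called differed from set to set. A gene not called in a set can still go the same way there. In the fenbuconazole, imazalil and 2,4-D sets HOXD8 was highest on replicate 2 at 7, 7 and 8 of 9 concentrations. HOXB8 was so at 7, 7 and 6, and HOXB9 at 6, 8 and 3. Over the 27 treated arrays of a set, with concentration in the model, the moderated F (limma) called 0 of 29 HOX genes in the fenbuconazole set (0.797% of all probe sets were called), 3 in the imazalil set (HOXB8, HOXB9 and HOXC13, against 1.85%) and 3 in the 2,4-D set (HOXB13, HOXC10 and HOXC13, against 2.88%). At an unadjusted p under 0.05 there were 8, 9 and 8 of 29 genes, against 12.1%, 16.4% and 18.0% of all probe sets. With dim probe sets left out the shares called were higher, at 4.22%, 7.49% and 12.5% of all, and 3 of 23, 4 of 24 and 6 of 25 HOX genes were called. Between single numbers, replicate 2 minus 1 gave 1, 2 and 3 HOX genes in the fenbuconazole, imazalil and 2,4-D sets (0.943%, 1.31% and 1.05% of all probe sets), replicate 3 minus 2 gave 0, 3 and 2 (0.694%, 1.64% and 2.76%) and replicate 3 minus 1 gave 0 in each (0.0%, 0.0183% and 0.425%).

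In the 2,4-D set HOXC13 ranged from 6.54 to 6.83 (median 6.66) on the 9 arrays of replicate 1, from 6.14 to 6.43 (median 6.31) on replicate 2 and from 6.52 to 6.83 (median 6.61) on replicate 3. Replicate 2 did not overlap with the others. Replicate 2 minus 1 was -0.38 ± 0.04 (SE, 9 arrays each) and replicate 3 minus 2 was 0.36 ± 0.04, with an adjusted p of 6.27e-06 for the F (limma).

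In the imazalil set the ranges of HOXC13 were 6.31 to 6.85 (median 6.64), 6.15 to 6.40 (median 6.28) and 6.33 to 6.98 (median 6.67) for replicates 1, 2 and 3. Replicate 2 was again the lowest but overlapped with both others. Replicate 2 minus 1 was -0.32 ± 0.07 (SE) and the adjusted p of the F was 0.0123 (limma). In the fenbuconazole set the ranges were 5.427 to 5.996 (median 5.742), 5.23 to 5.61 (median 5.45) and 5.53 to 5.96 (median 5.66), and replicate 2 minus 1 was -0.32 ± 0.07 (SE; adjusted p = 0.0356, limma), while the F missed the threshold at an adjusted p of 0.0515 (limma). Replicate 2 was the lowest of the 3 arrays at 8, 8 and 9 of the 9 concentrations in the fenbuconazole, imazalil and 2,4-D sets.

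The DMSO columns, which that test did not use, read 5.66, 5.60 and 5.69 for HOXC13 in the fenbuconazole set and 6.73, 6.29 and 6.94 in the imazalil set, whose DMSO arrays appear to be those of the 2,4-D set. Replicate 2 was the lowest in each, by a small margin in the first. Replicate 3 minus 1 was -0.04 ± 0.07, 0.06 ± 0.07 and -0.02 ± 0.04 (SE), with overlapping ranges. Left without replicate 2, the test called 0 HOX genes in every set and 0, 2 and 5 of all probe sets. In the imazalil set the adjusted p of HOXC13 was 0.0536 without replicate 3 and 0.0660 over the concentrations up to 0.1 µM (limma). HOXC13 has 1 probe set, named s_at, which can match more than 1 transcript.

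**Figure D4:**
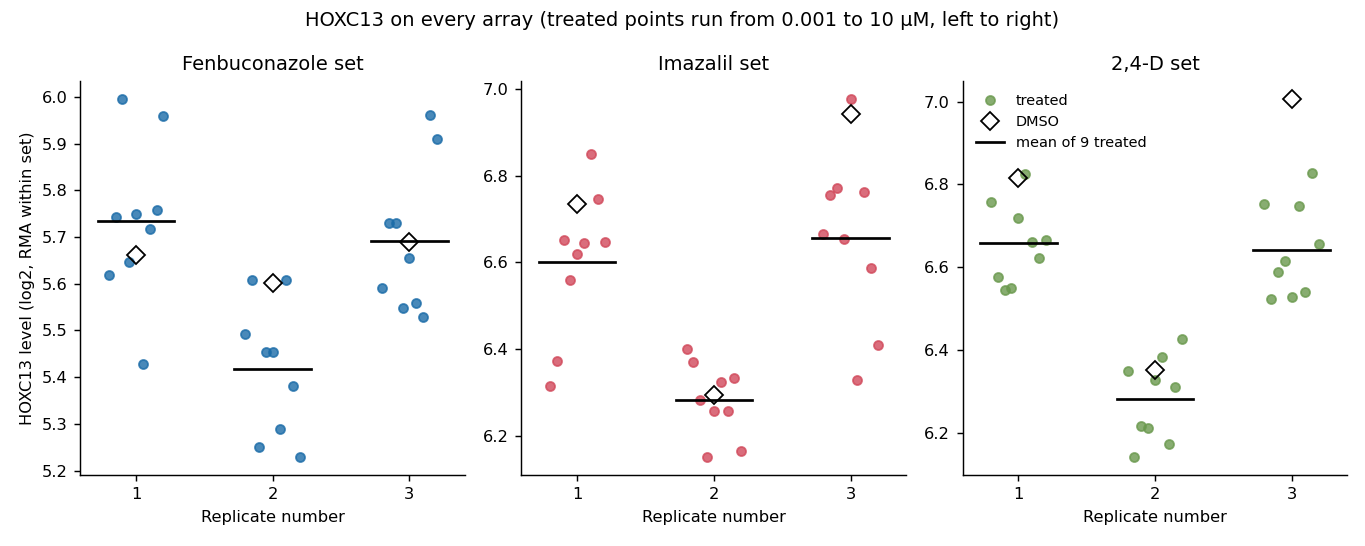
Level of HOXC13 (log2, RMA within the set, vertical axes that do not start at 0 and differ between panels) on every array by replicate number (horizontal axis). Filled points are treated arrays from 0.001 to 10 µM, open diamonds are DMSO columns and lines are means of 9 treated arrays. The mean of replicate 2 is the lowest in each panel, at 5.42, 6.28 and 6.28, against 5.69 to 5.73, 6.60 to 6.66 and 6.64 to 6.66 for the other numbers.

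HOXB8 went the other way in the imazalil set, with medians of 5.08, 5.16 and 4.81 over replicates 1, 2 and 3. The ranges overlapped (4.63 to 5.26, 4.94 to 5.37 and 4.53 to 5.09), and replicate 3 minus 2 was -0.35 ± 0.07 (SE; adjusted p of the F = 0.0274, limma). HOXB9 had medians of 3.99, 4.23 and 4.07 in that set, and replicate 2 minus 1 was 0.27 ± 0.06 (SE; adjusted p of the F = 0.0288, limma, and 0.0674 with trend and robust eBayes). HOXB9 was the highest on replicate 2 at 8 of 9 concentrations there and at 3 of 9 in the 2,4-D set. In the 2,4-D set HOXB13 had medians of 6.22, 6.13 and 5.87, and replicate 3 was the lowest at 7 of 9 concentrations (adjusted p of the F = 0.0305, limma). Its other probe set, above background as well, was not called there (adjusted p = 0.660, limma), and with the DMSO columns in the fit the first lost its call (adjusted p = 0.0883, limma). HOXC10 had medians of 5.99, 6.23 and 6.11, and replicate 2 minus 1 was 0.23 ± 0.05 (SE; adjusted p of the F = 0.0307, limma). Between single numbers limma also called HOXD8 in the imazalil set (replicate 3 minus 2, -0.18 ± 0.04) and HOXD10 (replicate 2 minus 1, 0.18 ± 0.04) and HOXB7 (replicate 3 minus 2, -0.13 ± 0.03) in the 2,4-D set.

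A test of whether the replicate differences themselves differed between the 3 sets called 0 of 29 HOX genes (limma, smallest adjusted p 0.279) and 0.00366% of all probe sets. At an unadjusted p under 0.05 (limma) there were 2 of the 29, against 9.23% of all. The adjusted p of HOXC13 was 0.924 there. The lack of a call does not show that the sets agree, and HOXC10 and HOXB3 had unadjusted p of 0.00204 and 0.0106 (limma). The 81 treated columns were also fitted together, which takes a number to mean the same in every set. This fit was added after the results by set were seen. It called 10 of 29 HOX genes (HOXB7, HOXB8, HOXB9, HOXC8, HOXC13, HOXD1, HOXD8, HOXD9, HOXD10 and HOXD12), or 34.5%, against 12.4% of all 54613 probe sets. With 1 probe set per gene the counts were 11 of 29 and 20.1% of all. Since the sets show the same direction for HOXC13 already, this fit is no independent support for it. It gave HOXC13 -0.34 ± 0.04 (SE) for replicate 2 minus 1 and 0.34 ± 0.04 for 3 minus 2, with an adjusted p of 1.27e-11 (limma).

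In this fit 8 HOX genes passed between replicates 2 and 1 (7.52% of all probe sets). HOXB8, HOXB9, HOXD8, HOXD9, HOXD10 and HOXD12 were higher on replicate 2, and HOXC13 and HOXC8 lower. Between replicates 3 and 2 there were 8 as well (10.2% of all), with HOXC13 higher on replicate 3 and HOXB3, HOXB7, HOXB8, HOXB9, HOXD1, HOXD8 and HOXD9 lower. Between 3 and 1 there were 0 at the adjusted threshold (1.74% of all) and 6 at an unadjusted p under 0.05 (15.7% of all). HOXB8 stood at 0.17 ± 0.05 (SE), HOXB9 at 0.19 ± 0.04 and HOXD8 at 0.11 ± 0.02 for replicate 2 minus 1. HOXC8 stood at -0.29 ± 0.08 (SE), and its values by set were -0.40 ± 0.12, -0.46 ± 0.14 for fenbuconazole and imazalil, with overlapping ranges and nearly equal means (4.95 and 4.94) in the 2,4-D set. HOXD9 stood at 0.12 ± 0.03, HOXD10 at 0.09 ± 0.03 and HOXD12 at 0.13 ± 0.04 (SE). For replicate 3 minus 2, HOXB7 stood at -0.10 ± 0.03 and HOXD1 at -0.12 ± 0.03 (SE). A second probe set of HOXB7 passed too, in the same direction, and the other probe set of HOXD1 passed in the opposite direction, at 0.10 ± 0.03 for replicate 3 minus 1 against -0.10 ± 0.03, while the other probe sets of HOXB8, HOXB9, HOXD9 and HOXD10 did not. HOXD1 and HOXD12 were at background in every set, and HOXB9 in the DMSO columns of the fenbuconazole set. Without the imazalil set only HOXB8 and HOXC13 of the 29 were called. Without the 2,4-D set there were 6, and without the fenbuconazole set 9. No share over all probe sets stands beside these counts, so they are not read as particular to HOX genes.

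**Figure D5:**
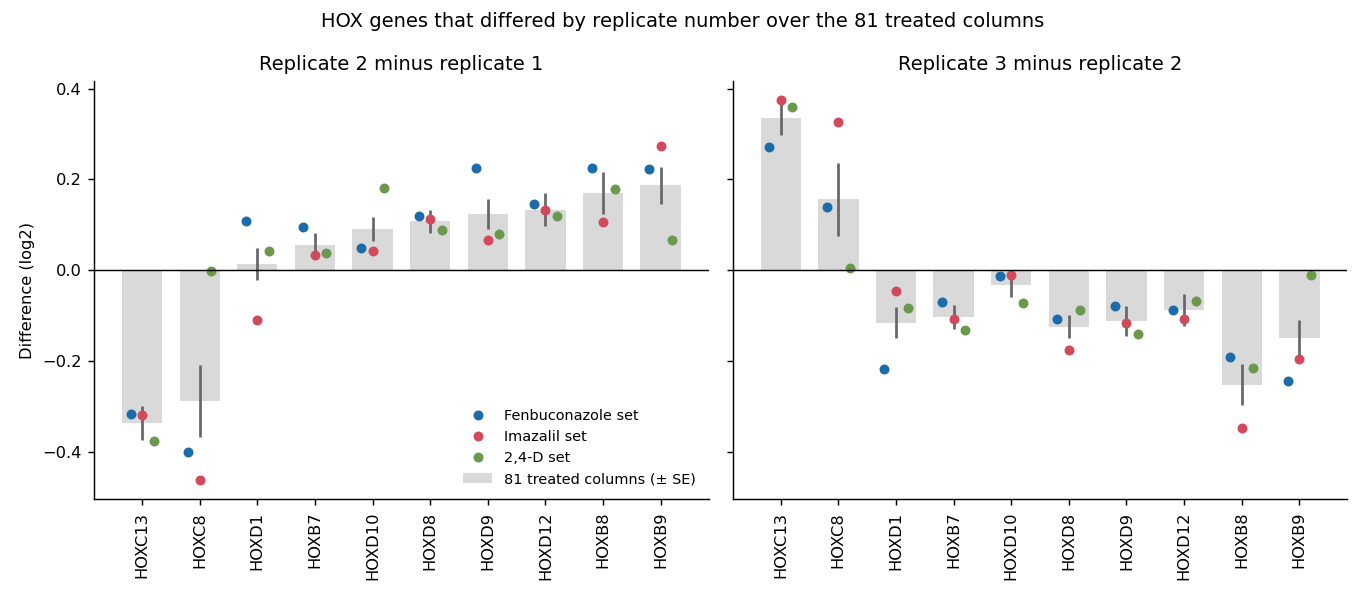
Difference between replicate numbers (log2, vertical axis) of the 10 HOX genes called over the 81 treated columns, for replicate 2 minus 1 (left) and 3 minus 2 (right). Bars are estimates over the 81 columns with their SE, and points are the estimates within each set. HOXC13 is at -0.34 and 0.34, with the 3 sets close together, while for HOXC8 and HOXB9 they lie apart.

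Other measures were read beside these replicate differences. The array medians of the treated columns lay within 2.76 to 2.83, 3.34 to 3.39 and 3.40 to 3.46 in the 3 sets, with all replicate numbers overlapping. The mean of the 10 Ewing sarcoma markers ran over replicates 1, 2 and 3 from 9.04 to 9.17, 8.96 to 9.09 and 9.00 to 9.10 in the fenbuconazole set, from 9.80 to 9.86, 9.77 to 9.83 and 9.77 to 9.85 in the imazalil set, and from 9.86 to 9.93, 9.87 to 9.94 and 9.82 to 9.93 in the 2,4-D set. The difference between the 3′ and 5′ control probe sets of ACTB, a sign of RNA quality, was 0.46 ± 0.21, 0.36 ± 0.10 and 0.33 ± 0.08 (SD, n = 9) in the fenbuconazole set, where that of GAPDH was -0.05 ± 0.09, -0.13 ± 0.05 and -0.09 ± 0.04. The ACTB difference was 0.52 ± 0.06, 0.46 ± 0.06 and 0.46 ± 0.04 (SD, n = 9) in the imazalil set and 0.51 ± 0.08, 0.49 ± 0.03 and 0.53 ± 0.07 (SD, n = 9) in the 2,4-D set. Their part in the HOX differences was not tested, and cell batch, plate and array run cannot be told apart within a replicate number.

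Among the listed genes ALDH1A1, which makes retinoic acid, was called by replicate number in the imazalil and 2,4-D sets (adjusted p 0.00319 and 0.00244, limma). Its replicate 3 minus 2 was -0.46 ± 0.07 and -0.45 ± 0.07 (SE). SMUG1, a DNA repair gene that neighbours the HOXC cluster, was called in the imazalil set (adjusted p = 0.0414, limma), with replicate 2 minus 1 at -0.24 ± 0.06 (SE). No Polycomb, Trithorax, TALE cofactor, ParaHox or cluster RNA gene was called in any single set. Over the 81 columns 3 of 8 TALE cofactors (MEIS1, MEIS2 and PKNOX1), 10 of 28 Polycomb genes, 3 of 14 Trithorax genes and 1 of 7 ParaHox genes were called. So were 4 of 13 neighbours, 2 of 11 cluster RNAs (HOTTIP and HOXD-AS2) and 3 of 16 retinoic acid genes. HOTTIP was above background in no set. The share called was 12.4% of all probe sets, and 20.1% when the fit kept 1 probe set per gene, as the lists do.

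At 10 µM limma called 0 genes of these 7 lists under every chemical, and the genes with the smallest p are given with their changes. Among TALE cofactors these were PBX2 under fenbuconazole (0.19 ± 0.09, SE, n = 3) and MEIS1 under imazalil (-0.16 ± 0.08). Among Polycomb genes they were SCMH1 under 2,4-D (0.36 ± 0.12, SE, n = 3) and JARID2 under fenbuconazole (-0.25 ± 0.09). Among Trithorax genes they were KMT2B under imazalil (0.37 ± 0.10, SE, n = 3) and DPY30 under fenbuconazole (0.15 ± 0.08). Of the cluster RNAs, HAGLR under fenbuconazole gave 0.40 ± 0.20 and HOXB-AS1 under imazalil -0.24 ± 0.13 (SE, n = 3). HAGLR was above background on no DMSO column of the fenbuconazole set. Of the neighbours, CALCOCO1 and ATF2 under imazalil gave 0.32 ± 0.12 and 0.25 ± 0.13 (SE, n = 3). CDX2 and PDX1, of the ParaHox list, gave -0.16 ± 0.09 and 0.17 ± 0.11 (SE, n = 3) under imazalil, and CDX2 was above background in no set. Of the retinoic acid genes, CYP26B1, which degrades retinoic acid, gave -0.44 ± 0.14 and ALDH1A2, which makes it, 0.24 ± 0.13 (SE, n = 3) under fenbuconazole. ALDH1A2 was above background on no DMSO column of that set.

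Across the 81 treated columns, after removal of set and concentration means, the correlations between HOX genes were low. So were those between probe sets of the same gene, with a median of 0.07 over 11 pairs from 5 genes (-0.25 to 0.57), so a low value does not show that 2 genes moved apart. Pairs of the 21 genes had a median Pearson r of 0.13 within a cluster (64 pairs) and 0.03 between clusters (146 pairs), against 0.02 over all pairs of genes above background, and the highest was HOXD4 with HOXD9, at 0.65. The genes outside the family most like the mean of the 21 were PPP4R1 (0.54), PCDHB5 (0.54), ANKRD10 (0.52), HDDC3 (0.52) and PNPLA8 (0.52). These are descriptions over columns that share sets and replicate numbers.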

How the data were processed

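The deposited values are log2 expression levels per probe set, for which the authors ran RMA (background correction, quantile normalization and summary of the probes) in Partek, once for each chemical with its DMSO columns. The versions of both are not given in the sources used here. The values ran from 1.44 to 13.7, and arrays give no depth, so the number of arrays limits the precision. Of 54715 probe sets 102 manufacturer controls were left out, and 54613 were tested. The platform annotation gave 40914 of these 1 gene symbol, 864 several and 12835 none. A probe set that names HOXD4 with a further symbol was not used. Coordinates and promoters are from RefSeq GRCh38.p14, and 12 of the 29 HOX genes had a promoter in the table.

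Tests used limma 3.58.1 (lmFit, contrasts and eBayes) in R 4.3.3 with Benjamini-Hochberg adjustment over all tested probe sets and a threshold of 0.05. The 30 columns of a set were fitted as 10 groups without a replicate term, as in the study's methods. Replicate numbers were tested on the 27 treated columns of a set with concentration as a factor. The numbers follow the titles. The study's methods describe replicates as separate batches of cells, but the labels do not tie a number to one. The ceiling, counts and figures were made with Python 3.11.15, pandas 2.3.3, numpy 2.4.6 and matplotlib 3.10.9, and the fits were tested on simulated data. Every HOX gene above background in all sets was named, with every member called by a test, the 3 with the smallest p per chemical at 10 µM, the 2 with the smallest p of each other list and the 5 genes most like the HOX mean. The members and lists were chosen with earlier results of these data known. Alternatives changed the ceiling, the probe set filter, the variance model, the normalization, the replicate block and the arrays included.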

Additional observations from a re-analysis of the deposited data

How the results depend on the processing

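The count of 21 HOX genes above background ran from 18 to 23 under 9 alternatives, 21 without any one DMSO column number. All 102 alternatives of the 12 treatment tests called 0 HOX genes, those without one replicate included (0 to 0). With the replicate block the 10 µM counts were also 0 HOX genes per chemical, and 4, 2 and 0 of all probe sets. Arrays of the same number had a mean correlation of 0.042, 0.0689 and 0.0781 over 135 pairs per set, with single pairs below 0. Of 30 arrays per set 25, 30 and 30 correlated best with their own number, so the numbers did group the arrays. The main tests of treatment followed the study's methods and had no replicate term. Differences between numbers therefore stayed in their error, and only the fits with the replicate block removed them. The replicate number counts moved more. In the fenbuconazole set, where 0 were called (0.797% of all), there were 3 with dim probe sets left out (4.22% of the probe sets tested). There was 1 with 1 probe set per gene (2.04%). There was also 1 each with trend and robust eBayes or after a second quantile normalization. In the imazalil set, where 3 were called, there were 0 to 2 without one replicate and 0 up to 0.1 µM. In the 2,4-D set, where 3 were called (2.88% of all), there were 6 with dim probe sets left out (12.5% of the probe sets tested). There were 6 with 1 probe set per gene (7.07%). The count was 5 with trend and robust eBayes, 0 to 1 without one replicate and 1, HOXC13, up to 0.1 µM. Over the 81 treated columns, where 10 were called, there were 2 without the imazalil set and 6 without the 2,4-D set. Where no share over all probe sets is given, a count stands without that comparison. Such a count cannot be read as particular to HOX genes. HOXB13 lost its call in the 2,4-D set with the DMSO columns included (adjusted p = 0.0883, limma), and HOXB9 lost its in the imazalil set with trend and robust eBayes (adjusted p = 0.0674, limma). The interaction count was 0 under its 4 alternatives. The cause of these moves was not tested. The 3 arrays of a group limit the precision, with a median interval half-width of 0.217 at 10 µM.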
